A study of Homo sapiens with 3 samples.

Results

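The 10 genes described here encode the MYC and MAX network of transcription factors, taken from the table by gene symbol: MYC, MYCL, MAX, MXI1, MXD1, MXD3, MXD4, MNT, MLX and MGA. Of these, 9 were measured, by 11 probe sets, among 14884 named genes in all. MYCL had no probe set with its symbol alone. The 9 were read on 3 Affymetrix HuGene-2_0-st arrays from BE(2)-C cells, an established human neuroblastoma line that carries an amplified MYCN gene, 40 hours after transfection with WDR5 siRNA-1, WDR5 siRNA-2 or a control siRNA. WDR5 is a histone H3 lysine 4 presenter found in several chromatin complexes, and the title of the series places it beside N-Myc, the product of MYCN. Each group was 1 array from 1 line, so no value has a replicate error, no p-value is given, and every ratio compares a pair of arrays.

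The factors of this network share a basic helix-loop-helix leucine zipper and bind DNA as dimers at the E-box CACGTG. MAX is the common partner: with a MYC protein it forms an activating dimer, and with MXD1, MXI1, MXD3, MXD4 or MNT it forms dimers that recruit the SIN3 corepressor and histone deacetylases. MGA joins MAX to PRC1.6, a Polycomb complex that keeps germline genes silent and of which WDR5 is also a subunit. MLX is a MAX-like hub that pairs with the glucose-sensing factors MondoA and ChREBP as well as with MXD1, MXD4 and MNT. In neuroblastoma, MYCN amplification makes N-Myc the dominant MYC protein of the cell.

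The siRNA target was below control on both arrays. WDR5 had a log2 level of 7.90 with WDR5 siRNA-1 and of 7.90 with WDR5 siRNA-2, against 9.46 with control siRNA, a log2 ratio of -1.56 for each. These values come from 1 probe set, and the WDR5 siRNA arrays were tied exactly on it. Markers of cell types were read as a description and were not a test of the identity of the line. Of 11 sympathetic neuroblastoma markers 9 were measured, and all 9 passed the level filter. Their median log2 level was 10.4 with WDR5 siRNA-1, 10.9 with WDR5 siRNA-2 and 10.8 with control siRNA. Of 4 Schwann markers 2 were measured, S100B and SOX10, and both passed the filter too. Their median log2 level was 6.90 on each array, and their log2 ratios were 0. Of 5 fibroblast markers 1 was measured, DCN, below the filter and also with log2 ratios of 0. Of 5 leukocyte and endothelial markers 3 were measured, and 1, CD68, passed the filter with log2 ratios of 0.38 with WDR5 siRNA-1 and 0.08 with WDR5 siRNA-2. The filter kept the 7442 genes whose mean log2 level over the arrays was at or above the median of 6.78, and 8 of the 9 measured network factors were among them. Levels of different genes are not ranked against each other, since probe sets differ in affinity. Exact ties between arrays were common in the deposited table: all 3 arrays were equal in 14.9% of kept genes, and the WDR5 siRNA arrays were equal in 21.5%.

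None of the 8 network factors was 1.5-fold from control with both WDR5 siRNAs. The counts were 0 of 8 higher and 0 of 8 lower, against 0.618% and 0.847% of all kept genes, so the counts are near the background. Those shares are 46 genes higher and 63 lower, a split that median centring turned to 56 and 49. Taken singly, 0 of 8 passed 1.5-fold with either siRNA in either direction; of all kept genes, 2.24% were higher and 4.60% lower with WDR5 siRNA-1, and 2.19% were higher and 4.00% lower with WDR5 siRNA-2. By any amount, 4 factors were higher and 4 lower with WDR5 siRNA-1 than with control, where 38.1% and 38.2% of kept genes were. With WDR5 siRNA-2, 7 were higher, 0 lower and 1, MXD3, equal to control, and with the mean of probe sets MXD3 was lower; here 32.6% of kept genes were higher and 41.6% lower. The median log2 ratio of the 8 factors was -0.01 with WDR5 siRNA-1 and 0.14 with WDR5 siRNA-2, and the median of all kept genes was 0 in both comparisons. The comparisons share the 1 control array, so their values are not independent.

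**Figure D1:**
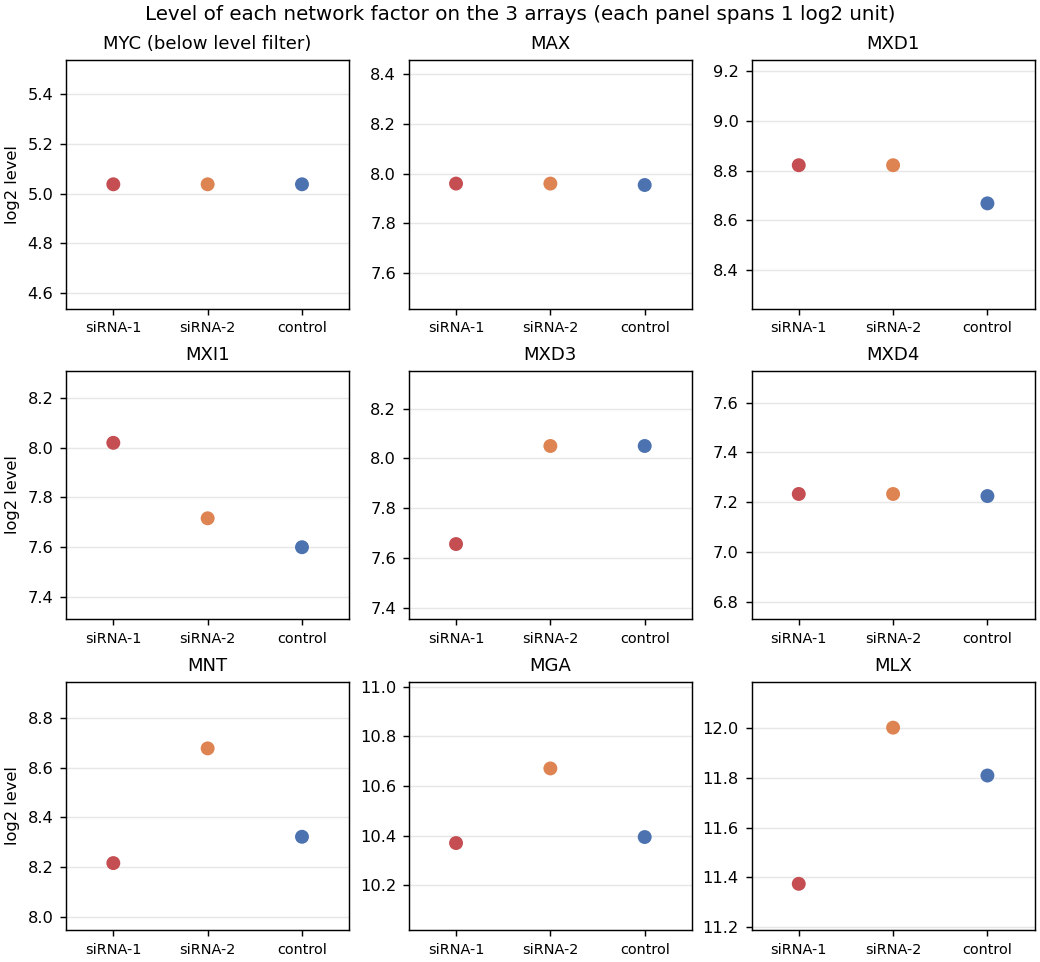
Log2 level (vertical axis, each panel spanning 1 log2 unit) of the 9 measured factors on the WDR5 siRNA-1, WDR5 siRNA-2 and control siRNA arrays (horizontal axis), with 1 point per array and no error bar because each group is 1 array. MYC, MAX and MXD4 lie flat, MXI1 is highest with WDR5 siRNA-1, and MNT, MGA and MLX are highest with WDR5 siRNA-2.

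MYC and its partner MAX had flat or nearly flat deposited values, as did MXD4. MYC, the founding member, had a log2 level of 5.04 with WDR5 siRNA-1, 5.04 with WDR5 siRNA-2 and 5.04 with control siRNA. The value was the same on all arrays and stood below the level filter, so MYC took no part in the counts. A difference in MYC was not detectable in this table. A shared pair of zero log2 ratios is frequent here, since 1107 of the kept genes had it. MAX had a log2 level of 7.960 with WDR5 siRNA-1 and of 7.960 with WDR5 siRNA-2, against 7.955 with control siRNA, a log2 ratio of 0.0057 for each. The siRNA arrays were tied for MAX, and control lay 1.004-fold below them. Among kept genes, MIR1250, CST4 and RSL1D1 had the pair of log2 ratios nearest to that of MAX over the 3 arrays, at Euclidean distances of 0.000536, 0.00066 and 0.000843. All of these ratios are close to 0 and rest on tied siRNA arrays, so the likeness says no more than that.

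The MXD repressors did not move as a block. MXD1, induced in many cell types as they leave the cell cycle, had a log2 level of 8.82 with WDR5 siRNA-1 and 8.82 with WDR5 siRNA-2, against 8.67 with control siRNA. Both siRNA arrays were thus 1.11-fold above control, at the same deposited value. MXI1, also known as MXD2, had a log2 level of 8.02 with WDR5 siRNA-1 and 7.72 with WDR5 siRNA-2, against 7.60 with control siRNA. It was 1.34-fold higher with WDR5 siRNA-1 and 1.08-fold higher with WDR5 siRNA-2, and the siRNA-1 array was the highest. With WDR5 siRNA-1 the MXI1 log2 ratio of 0.42 placed it 366th from the top of the 7442 kept genes, close to their 95th percentile of 0.42.

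A second probe set annotated to MXI1 did not carry the same pattern. It read a log2 level of 6.888 with WDR5 siRNA-1 and 6.986 with WDR5 siRNA-2, against 6.888 with control siRNA, so it gave a ratio of 0 with WDR5 siRNA-1 and of 0.10 with WDR5 siRNA-2. The mean of both probe sets had a log2 ratio of 0.21 with WDR5 siRNA-1, against 0.42 from the brighter one. The annotation pairs the probe sets with different RefSeq transcripts of MXI1; whether that accounts for the difference was not tested.

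MXD3, an MXD protein whose transcript is known from proliferating cells, was the MXD gene that stood below control. Its log2 level was 7.66 with WDR5 siRNA-1 and 8.05 with WDR5 siRNA-2, against 8.05 with control siRNA. It was therefore 1.31-fold lower with WDR5 siRNA-1 and equal to control with WDR5 siRNA-2. The dimmer MXD3 probe set, below the level filter, read 6.19 with WDR5 siRNA-1 and 6.12 with WDR5 siRNA-2, against 6.19 with control siRNA, which is no difference with WDR5 siRNA-1 and a log2 ratio of -0.06 with WDR5 siRNA-2. MXD4, the MXD member typical of differentiated tissues, had a log2 level of 7.233 with each WDR5 siRNA, against 7.225 with control siRNA. Its log2 ratio was 0.0083 with each siRNA, and as for MAX the siRNA arrays were tied.

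MNT, MGA and MLX, which lie outside the MXD subfamily, shared an order of the arrays: lowest with WDR5 siRNA-1, then control siRNA, then WDR5 siRNA-2. After median centring, MGA with WDR5 siRNA-1 lay above control. The order was not confined to these genes, since MXD3 was kept from it by a tie with control for WDR5 siRNA-2. With WDR5 siRNA-1 and WDR5 siRNA-2, MXD3 had log2 ratios of -0.36 and 0.08 with quantile normalization. With median centring they were -0.35 and 0.05. Such opposite sides of control, in either order, were common, at 25.2% of all kept genes. MNT, the most broadly expressed antagonist of MYC at E-boxes, had a log2 level of 8.22 with WDR5 siRNA-1 and 8.68 with WDR5 siRNA-2, against 8.32 with control siRNA. It was 1.08-fold lower with WDR5 siRNA-1 and 1.28-fold higher with WDR5 siRNA-2, the highest ratio of any of the 8 factors with that siRNA. MGA, which joins a T-box to the helix-loop-helix zipper, had a log2 level of 10.37 with WDR5 siRNA-1 and 10.67 with WDR5 siRNA-2, against 10.39 with control siRNA. It was 1.21-fold higher with WDR5 siRNA-2, while its log2 ratio of -0.02 with WDR5 siRNA-1 became 0.02 when each array was centred on the median of the kept genes.

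MLX had the largest difference between arrays of all the factors. Its log2 level was 11.37 with WDR5 siRNA-1 and 12.00 with WDR5 siRNA-2, against 11.81 with control siRNA. It was 1.35-fold lower with WDR5 siRNA-1 and 1.14-fold higher with WDR5 siRNA-2. The siRNA arrays thus lay on opposite sides of the control array for MLX.

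**Figure D2:**
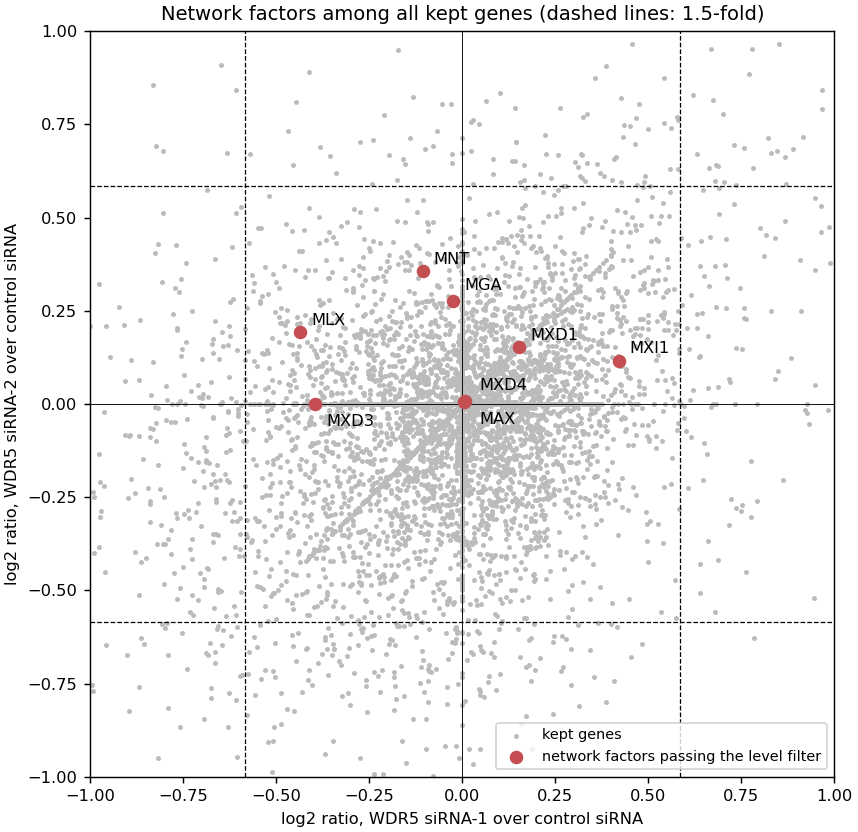
Log2 ratio to control siRNA with WDR5 siRNA-1 (horizontal axis) and with WDR5 siRNA-2 (vertical axis) for the 8 factors that passed the level filter (large points, MAX and MXD4 overlapping near 0) and for 7257 kept genes (small points; 185 lie outside the axes). All 8 factors lie within the dashed 1.5-fold lines. MLX and MNT lie above 0 on the vertical axis and below 0 on the horizontal one, and MGA lies above 0 on the vertical axis and near 0 on the horizontal one.

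Between the WDR5 siRNA arrays, 3 of the 8 factors, MNT, MLX and MGA, lay further apart than either array did from control, and the other 5 did not. This is the same as lying on opposite sides of control, which 25.2% of all kept genes did, in either order. With quantile normalization or median centring, which break its tie with control, MXD3 did so too. With median centring MGA did not. The median absolute log2 difference of the 8 was 0.30 between the siRNAs, 0.13 for WDR5 siRNA-1 against control and 0.14 for WDR5 siRNA-2 against control, but the median between the siRNAs was 0.13 with the mean of probe sets. Over all kept genes the medians were 0.13, 0.11 and 0.09 in that order. MLX was 1.55-fold lower with WDR5 siRNA-1 than with WDR5 siRNA-2, the 1 of 8 factors past 1.5-fold in that direction, where 4.65% of kept genes were; 0 of 8 were 1.5-fold higher, where 4.21% were. MNT was 1.38-fold lower with WDR5 siRNA-1 than with WDR5 siRNA-2, MXD3 1.31-fold lower and MGA 1.23-fold lower. MXI1 went the other way, 1.23-fold higher with WDR5 siRNA-1. MAX, MXD1 and MXD4 were tied. The median log2 ratio of WDR5 siRNA-1 over WDR5 siRNA-2 was -0.15 over the 8 factors and 0 over all kept genes. By any amount, 1 factor was higher and 4 were lower with WDR5 siRNA-1 (7 lower with quantile normalization or median centring, which break the ties), where 43.1% of kept genes were higher and 35.5% lower. The MLX log2 ratio of -0.63 lay below the 5th percentile of kept genes, -0.57, and was 311th from the bottom of 7442. WDR5 itself was tied on these arrays.

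Of the 9 sympathetic neuroblastoma markers measured, 4 had the order of arrays seen for MLX, below control with WDR5 siRNA-1 and above it with WDR5 siRNA-2, and 5 did not. Of all kept genes, 25.2% lay on opposite sides of control with the WDR5 siRNAs, in either order, a share not limited to the order of MLX. Of the 4, DBH, which makes noradrenaline, had log2 ratios to control of -0.81 with WDR5 siRNA-1 and 0.51 with WDR5 siRNA-2. In that order CHGA, a granule protein gene, had -0.47 and 0.73, GATA2 had -0.09 and 0.28, and PHOX2A had -0.18 and 0.04. Of the 5, HAND2 had log2 ratios of -0.02 with WDR5 siRNA-1 and -0.35 with WDR5 siRNA-2, GATA3 of -0.02 and -0.32, and ISL1 of 0.23 and 0.39. The last of the 5 were flat, TH at 0 and STMN2 at -0.004 with each siRNA. Markers of mesenchymal neuroblastoma cells were measured for 5 of 5 genes, and 2 passed the filter: VIM had log2 ratios of 0.75 with WDR5 siRNA-1 and -0.29 with WDR5 siRNA-2, and SNAI2 of 0.72 and 0.06. The median log2 level of that list was 6.31 with WDR5 siRNA-1, 6.31 with WDR5 siRNA-2 and 6.17 with control siRNA. These markers were singled out after their values were seen, and their part in the MLX, MNT and MGA values was not tested. On a bulk array, fewer cells of a type and less RNA per cell cannot be told apart.

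The promoters of the members were read for the E-box that this family binds. In the RefSeq windows of GRCh38.p14, which run from 250 bases before to 50 bases after each start, the 6 letters CACGTG (the same on both strands) stood in 7.26% of 35116 windows of 300 bases. They stood in 3 of the 14 windows found for 9 member genes, in MXD4, MNT and MLX. The table held no window for MYC. The variant CACGCG, searched on both strands and not overlapping CACGTG, stood in 11.4% of all windows and in 3 of the 14, in MGA, MXD3 and MXI1. The windows of MLX, MNT and MXD4 are shown as the ones that hold the CACGTG, and that of MXD1 as one without it; they run 5′ to 3′ on the gene's strand, with the E-box in capitals.
MLX: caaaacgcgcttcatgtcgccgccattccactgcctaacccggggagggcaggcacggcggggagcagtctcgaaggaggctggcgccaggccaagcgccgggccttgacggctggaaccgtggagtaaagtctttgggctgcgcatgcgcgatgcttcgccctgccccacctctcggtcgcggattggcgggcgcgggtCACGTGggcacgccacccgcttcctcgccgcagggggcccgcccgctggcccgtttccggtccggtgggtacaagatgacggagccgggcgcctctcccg
MNT: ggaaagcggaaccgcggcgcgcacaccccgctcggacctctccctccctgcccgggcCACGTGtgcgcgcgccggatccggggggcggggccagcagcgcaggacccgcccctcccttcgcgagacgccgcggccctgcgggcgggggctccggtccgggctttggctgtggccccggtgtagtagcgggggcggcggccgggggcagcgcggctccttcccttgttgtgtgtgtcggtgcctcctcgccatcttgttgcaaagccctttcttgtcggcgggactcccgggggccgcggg
MXD4: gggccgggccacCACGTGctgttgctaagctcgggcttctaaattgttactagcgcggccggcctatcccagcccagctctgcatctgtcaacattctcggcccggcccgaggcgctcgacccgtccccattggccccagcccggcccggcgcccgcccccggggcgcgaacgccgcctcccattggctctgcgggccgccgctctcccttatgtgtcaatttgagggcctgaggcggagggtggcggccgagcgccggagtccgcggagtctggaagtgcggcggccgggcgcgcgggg
MXD1: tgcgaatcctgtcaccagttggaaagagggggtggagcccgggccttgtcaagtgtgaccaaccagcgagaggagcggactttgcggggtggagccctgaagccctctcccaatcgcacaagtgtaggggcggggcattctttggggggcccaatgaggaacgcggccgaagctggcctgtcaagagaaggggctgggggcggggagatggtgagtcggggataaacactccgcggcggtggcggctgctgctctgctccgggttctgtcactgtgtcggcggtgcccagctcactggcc

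The windows lie at chr17:42566850-42567149 on the plus strand for MLX, chr17:2401011-2401310 on the minus strand for MNT, chr4:2262060-2262359 on the minus strand for MXD4 and chr2:69914859-69915158 on the plus strand for MXD1. The E-box begins 50 bases before the start of MLX, 193 before that of MNT and 238 before that of MXD4. Among the genes with the CACGTG, MLX and MNT differed between the WDR5 siRNA arrays and MXD4 was tied. Among the measured genes with windows that lack it, MXI1, MXD3 and MGA differed, and MAX and MXD1 were tied. The ties are those of the deposited values, and quantile normalization breaks them. Whether the letters bear on these differences was not tested. No binding was measured here, and a match is a description of the letters only.

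Partners and targets of the network were then read as lists. Of all kept genes, 1.46% were 1.5-fold from control either way with both siRNAs. On lists as short as those below, counts of 0 are near that share and are not results about the lists. MondoA, encoded by MLXIP, had a log2 ratio of 0 with WDR5 siRNA-1 and 0.11 with WDR5 siRNA-2. ARRDC4, an arrestin-domain gene that MondoA and MLX activate on glucose uptake, was 2.13-fold higher with WDR5 siRNA-1 and 1.17-fold higher with WDR5 siRNA-2. Its log2 level was 9.49 with WDR5 siRNA-1 and 8.62 with WDR5 siRNA-2, against 8.40 with control siRNA, so the array with the lowest MLX had the highest ARRDC4. TXNIP, the other standard target of that dimer, did not follow, with log2 ratios of 0.07 with WDR5 siRNA-1 and -0.30 with WDR5 siRNA-2. Of the 4 genes on that list 3 passed the filter and 0 were 1.5-fold from control with both siRNAs. MLXIPL, the ChREBP gene, was below the filter. MLXIP, TXNIP and MLXIPL, the rest of that list, were picked once values were known.

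Corepressors of the MXD and MNT proteins had 9 of 17 genes measured and kept, with 0 at 1.5-fold with both siRNAs and medians of 0 with WDR5 siRNA-1 and -0.06 with WDR5 siRNA-2. RBBP7, a histone-binding subunit, had log2 ratios of -0.24 with WDR5 siRNA-1 and -0.09 with WDR5 siRNA-2, and SUDS3, a SIN3 complex subunit, of -0.31 and -0.06 in that order. The SIN3 scaffolds themselves, singled out after their values were seen, were highest with WDR5 siRNA-1 and lowest with WDR5 siRNA-2, the reverse of MNT. SIN3A had a log2 level of 10.25 with WDR5 siRNA-1 and 9.47 with WDR5 siRNA-2, against 9.97 with control siRNA. SIN3B had a log2 level of 8.29 with WDR5 siRNA-1 and 7.73 with WDR5 siRNA-2, against 7.98 with control siRNA. The list did not go 1 way. With WDR5 siRNA-1 and WDR5 siRNA-2, HDAC1 had the order of MNT, with log2 ratios of -0.33 and 0.15. RBBP4 (0.09 and -0.56) and HDAC2 (0.15 and -0.02) had that of the SIN3 scaffolds. All 3 were picked once values were known. Of all kept genes, 25.2% lay on opposite sides of control, in either order.

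PRC1.6, the complex that holds MGA and MAX, had 11 of 14 subunit genes measured and kept. WDR5 was the 1 gene of the list at 1.5-fold with both siRNAs, and it is the siRNA target. CBX1, a heterochromatin protein gene, was 1.62-fold lower with WDR5 siRNA-1 and 1.17-fold lower with WDR5 siRNA-2. L3MBTL2, which binds chromatin through MBT repeats, was 1.16-fold higher with each, at the same deposited value. PCGF6, the Polycomb ring-finger subunit that defines the complex, was 1.16-fold and 1.05-fold lower with WDR5 siRNA-1 and WDR5 siRNA-2. The list medians were -0.01 with WDR5 siRNA-1 and 0 with WDR5 siRNA-2. Of 20 germline genes that this complex is known, mostly from mouse cells, to silence, 15 were measured and 2 passed the level filter. Of these 2, 0 were 1.5-fold from control with both siRNAs, and the medians were -0.04 with WDR5 siRNA-1 and 0.23 with WDR5 siRNA-2. TDRD1, a Tudor-domain gene of the germline, had a log2 level of 11.32 with WDR5 siRNA-1 and 11.21 with WDR5 siRNA-2, against 11.02 with control siRNA. TDRKH, the other kept gene, picked once values were known, had log2 ratios of -0.37 with WDR5 siRNA-1 and 0.27 with WDR5 siRNA-2. MAEL, another germline gene, stood below the filter with a log2 ratio of 0.11 for each siRNA, at the same deposited value.

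MYC cofactors gave 15 of 17 genes kept, and WDR5 itself was the 1 at 1.5-fold with both siRNAs. HCFC1, a WDR5 partner that also binds MYC, had a log2 ratio of -0.31 with each siRNA, the siRNA arrays being tied. TRRAP, the scaffold of MYC-recruited acetyltransferases, had a log2 ratio of -0.58 with WDR5 siRNA-1, just short of the limit, and of -0.10 with WDR5 siRNA-2. EP400, a chromatin remodeller, was 1.12-fold and 1.05-fold lower in the same order. The cofactor medians were 0 with WDR5 siRNA-1 and -0.03 with WDR5 siRNA-2. Genes that set the turnover of MYC proteins had 8 of 15 members kept and 0 at 1.5-fold with both siRNAs. USP28, a deubiquitinase that opposes the FBW7 ligase, had log2 ratios of -0.40 with WDR5 siRNA-1 and -0.21 with WDR5 siRNA-2. AURKA, the kinase that shields N-Myc from FBW7, had -0.64 and -0.19, PLK1, a mitotic kinase, -0.15 and -0.17, and CIP2A, a phosphatase inhibitor that stabilises MYC, 0.24 and 0.09, each in that order. The turnover medians were -0.02 with WDR5 siRNA-1 and -0.11 with WDR5 siRNA-2.

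**Figure D3:**
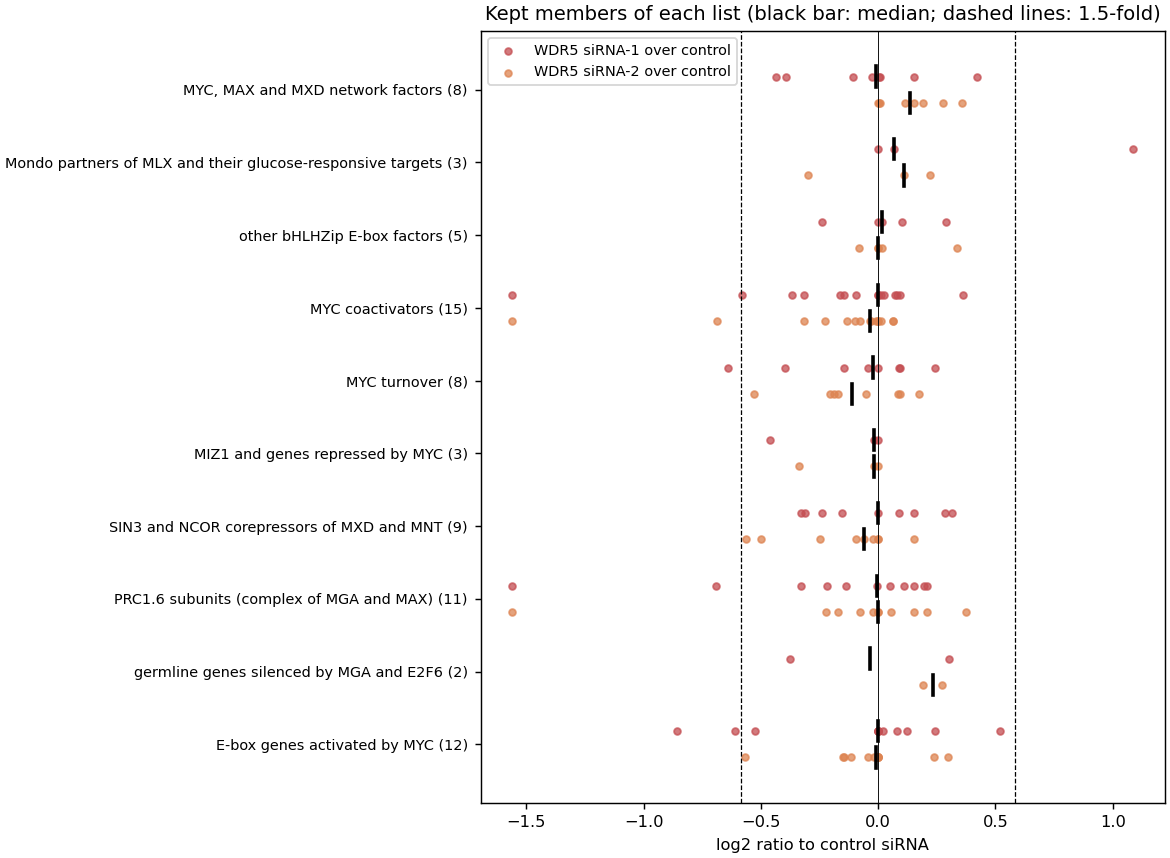
Log2 ratio to control siRNA (horizontal axis) of each kept gene of the 10 lists (rows, with the number of kept genes), with WDR5 siRNA-1 in the upper line of each row and WDR5 siRNA-2 in the lower line; black bars are medians and dashed lines are 1.5-fold. The network factors stay within the dashed lines in both lines, and the gene near -1.56 in the cofactor and PRC1.6 rows is WDR5.

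Genes activated or repressed by MYC, and other factors that bind E-boxes, were read last. Of 21 listed genes activated by MYC, 13 were measured and 12 kept, 0 were 1.5-fold from control with both siRNAs, and the medians were 0 with WDR5 siRNA-1 and -0.01 with WDR5 siRNA-2. LDHA, the lactate dehydrogenase gene, was 1.52-fold lower with WDR5 siRNA-1 and 1.48-fold lower with WDR5 siRNA-2. CDC25A, a cell cycle phosphatase gene, was 1.81-fold and 1.11-fold lower, while SRM, which makes spermidine, was 1.43-fold and 1.23-fold above control and BOP1, a ribosome biogenesis gene, 1.06-fold and 1.18-fold above it, each with WDR5 siRNA-1 and then with WDR5 siRNA-2. Of 11 genes on the list of MIZ1 and genes repressed by MYC, 3 were measured, all kept, with 0 at 1.5-fold with both. CLU (clusterin) had log2 ratios of -0.46 with WDR5 siRNA-1 and -0.34 with WDR5 siRNA-2. NDRG1 had -0.02 with each, on tied siRNA arrays. ZBTB17, which encodes MIZ1 and was picked once values were known, had 0 with each. Other E-box binding zipper factors, with 5 of 9 genes kept, had 0 at 1.5-fold with both and medians of 0.02 with WDR5 siRNA-1 and 0 with WDR5 siRNA-2. In that list SREBF1, a regulator of lipid synthesis, had a log2 ratio of 0.02 with each, again on tied siRNA arrays. MITF, below the filter, had 0.11 with WDR5 siRNA-1 and 0.03 with WDR5 siRNA-2.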

How the data were processed

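The authors deposited 1 table of 53617 probe sets with 1 column per array, whose values were taken to be log2 because of their range; no scale is stated in the file, and the folds depend on this. Per the submitters' processing notes MAS5 was used, without its step; other steps are not given in the sources used here. The number of arrays limits the precision. Names came from the platform annotation: 16098 probe sets had 1 symbol and were used. The other 37519 were left unnamed here, and any probe set with several symbols would be among them. All 16098 Entrez identifiers matched the RefSeq gene table of GRCh38.p14. For genes with several probe sets (779), the one with the highest mean was used, and genes at or above the median mean level were kept. Log2 ratios are differences of deposited values, with no further scaling, and a gene counted at 1.5-fold or more. The counting was run on simulated data with shifts of set size. That checks the counting step only and not how reliable the counts are in these data. With 1 array per group no test was run.

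The members, lists and thresholds were chosen with earlier results of these data known. The genes named are the measured members, WDR5, up to 4 genes of each of the 9 other lists by largest shared ratio (the smaller of the 2 absolute log2 ratios where both have 1 sign), and up to 3 genes nearest to MYC and to MAX; other genes are marked as picked once values were known. The alternatives were no filter, a 75th percentile filter, the mean of probe sets, quantile normalization, median centring, and limits of 1.3-fold and 2-fold. MYCN was not analysed here. Python 3.11.15, numpy 2.4.6 and pandas 2.3.3 were used.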

Additional observations from a re-analysis of the deposited data

How the results depend on the processing

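The counts of 0 factors at 1.5-fold higher and 0 lower with both WDR5 siRNAs held under all 7 alternatives, the 1.3-fold limit included. Some of these could not have raised a count of 0. The 2-fold limit and the 75th percentile filter can only lower counts, and no filter adds only MYC, whose ratios were 0. The medians against control moved by less than 0.1 (log2). The median of WDR5 siRNA-1 over WDR5 siRNA-2 was 0 with no filter, where MYC adds a tied value, and -0.30 with the 75th percentile filter, which leaves 3 factors. The count of factors lower with WDR5 siRNA-1 than with WDR5 siRNA-2 (1, MLX; alternatives added after the data were seen) was 3 at the 1.3-fold limit and 0 at the 2-fold limit, as the limits imply, and 1 under the others. With the mean of probe sets the log2 ratio of MXI1 with WDR5 siRNA-1 was 0.21 and that of MXD3 was -0.20, both about the middle of the ratios of their probe sets. MXD3 with WDR5 siRNA-2, equal to control as deposited, had a log2 ratio of 0.08 with quantile normalization and of -0.03 with the mean of probe sets, and MGA with WDR5 siRNA-1 had 0.02 with median centring. Counts by any amount shift accordingly. Between the siRNAs the 4 lower factors became 7 with quantile normalization and with median centring, where the tied MAX, MXD1 and MXD4 fell below 0, and the median absolute difference of 0.30 became 0.13 with the mean of probe sets. Over all kept genes, the 46 higher and 63 lower with both became 51 and 51 with quantile normalization, 33 and 30 with the 75th percentile filter, 134 and 197 at the 1.3-fold limit and 6 and 7 at the 2-fold limit. No paired analysis was possible because each group is 1 array. Signal over background was not called, so low levels such as that of MYC are uncertain.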
